A study of Mus musculus with 15 samples.

Results

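Interferon-stimulated genes, the genes that a cell switches on when interferon reaches it, were followed in the liver of female mice in ageing and under protectin DX (PDX), a lipid mediator made from the omega-3 fatty acid docosahexaenoic acid. A list of 43 such genes was taken by gene symbol from the 55450 genes of the count table. No measured value enters the rule, although the list was drawn up with earlier results of these data known. All 43 passed the low-count filter that left 15808 genes for testing. The list held 8 genes taken as gamma-type (Gbp2, Gbp3, Gbp5, Gbp6, Gbp7, Igtp, Irgm1 and Irgm2), which answer most strongly to interferon gamma. The other 35 were taken as type I, mainly genes that answer to interferon alpha and beta. They include Irf1, Iigp1, Ifi47 and Tgtp1, which an alternative split counts as gamma-type. Liver RNA of 15 C57BL/6 mice was sequenced as poly(A) RNA. At the start of the study the Adult group (A1 to A5) was 6 months old and the Old group (O1 to O5) was 22 months old, and both were gavaged with corn oil as vehicle. The PDX group (P1 to P5) was also 22 months old at the start and was gavaged with PDX at 30 ng per g of body weight in corn oil. Daily gavage went on for 9 weeks and the livers were taken at the end of the study, so the mice were older when the RNA was measured. Adult mice given PDX were not analysed here, so the effect of PDX in the absence of ageing was not measured.

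Type I interferons bind a receptor present on nearly all cells and activate a complex that contains Stat2 and Irf9 and binds the interferon-stimulated response element (ISRE) in promoters. Interferon gamma, made mainly by T and natural killer cells, acts at gamma-activated sites (GAS) and through Irf1. The products include sensors of viral RNA and DNA, enzymes and binding proteins that block viral replication, and large GTPases that attack the vacuoles of intracellular pathogens. In the liver both hepatocytes and resident macrophages (Kupffer cells) express them. The 2 classes overlap, since many of the genes answer to both kinds of interferon.

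Many of the genes lie side by side. On the mouse genome GRCm38, Ifit2, Ifit3, Ifit3b and Ifit1 stand together at chr19:34550694-34650009, Gbp5, Gbp7, Gbp3 and Gbp2 at chr3:142493978-142638008, and Oas2, Oas3 and Oas1a at chr5:120730333-120907521. Irgm1, Tgtp1 and Ifi47 lie within chr11:48861968-49096974, and Igtp and Irgm2 overlap at chr11:58199556-58222782. Since only uniquely aligned pairs had been counted, genes with near-identical copies are measured less surely. Of the 50-base stretches in the exons of Tgtp1, 81.2% also occurred in another gene, chiefly Tgtp2. This share was 70.7% for Gbp6, 57.6% for Oas1a (with Oas1g), 51.2% for Ifit3 and 45.0% for Ifit3b.

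The 2 promoter elements were searched on both strands as GAAANNGAA (the core of the ISRE) and TTCNNNGAA (the GAS), from 250 bases before to 50 bases after each start in RefSeq. A window was found for 32 of the 43 genes. The ISRE core was present in 22 of these 32 (68.8%), against 9.76% of 27025 genes with a window. The GAS letters were present in 11 of 32 (34.4%), against 9.55% of all. Among gamma-type genes 7 of 7 held the ISRE core and 4 of 7 the GAS letters, and among type I genes 15 of 25 and 7 of 25 did. The bases upstream of 4 genes are shown, 5′ to 3′ on the gene's own strand with both motifs in capitals, as examples of repeated ISRE cores (Isg15 and Ifit1) and of GAS letters beside an ISRE core (Igtp and Gbp7). Neither layout is particular to a class, since the gamma-type genes Gbp3 and Irgm1 hold repeated ISRE cores with no GAS letters. The type I genes Bst2 and Oas1a hold both motifs.
Isg15 (chr4:156200819-156201068, minus strand): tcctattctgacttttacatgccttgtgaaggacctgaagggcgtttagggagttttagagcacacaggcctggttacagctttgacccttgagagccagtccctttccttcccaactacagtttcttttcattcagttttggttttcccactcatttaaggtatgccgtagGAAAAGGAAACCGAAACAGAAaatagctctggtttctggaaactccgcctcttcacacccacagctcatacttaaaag
Ifit1 (chr19:34640639-34640870, plus strand): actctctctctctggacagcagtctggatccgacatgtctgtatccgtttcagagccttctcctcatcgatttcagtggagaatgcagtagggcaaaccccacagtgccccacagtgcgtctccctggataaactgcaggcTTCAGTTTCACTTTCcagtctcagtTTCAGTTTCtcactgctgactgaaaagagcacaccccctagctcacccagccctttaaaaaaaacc
Igtp (chr11:58199306-58199555, plus strand): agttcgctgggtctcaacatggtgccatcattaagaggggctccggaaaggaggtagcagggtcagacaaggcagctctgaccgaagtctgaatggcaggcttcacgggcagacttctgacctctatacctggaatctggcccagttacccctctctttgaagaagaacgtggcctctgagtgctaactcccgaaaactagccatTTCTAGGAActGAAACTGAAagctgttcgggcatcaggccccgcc
Gbp7 (chr3:142530086-142530335, plus strand): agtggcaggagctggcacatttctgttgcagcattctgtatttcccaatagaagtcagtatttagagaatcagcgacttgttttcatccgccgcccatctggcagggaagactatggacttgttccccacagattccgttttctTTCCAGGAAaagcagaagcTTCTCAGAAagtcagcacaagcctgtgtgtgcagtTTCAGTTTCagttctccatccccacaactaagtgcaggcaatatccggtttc
Counted from the start in RefSeq, the ISRE cores began 78, 72 and 66 bases before that of Isg15 and 109, 103 and 84 before that of Ifit1. The bases shown for Ifit1 end short of its RefSeq start. Those from the annotated gene start (chr19:34640871) on were left out. In Igtp the GAS began 45 and the ISRE core 34 bases before the start, and in Gbp7 the GAS letters began at 106 and 87 and the ISRE core at 52. A match describes the letters and is not a measured binding site.

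Each library held 22424383 to 36070835 counted read pairs, and values are counts per 1000000 read pairs (CPM) after scaling of the libraries by the trimmed mean of M-values (TMM). O2 and O5 stood apart from the other Old mice, O5 being the lowest of the 15 mice for 28.4% of all tested genes and O2 the highest for 20.1%. The hepatocyte markers Alb, Apoa1, Ttr, Serpina1c and Cps1 were high in every library. Their summed level was 45860 CPM in O5, 74380 CPM in O2 and 105400 CPM or more in each Adult and PDX mouse. Most of this sum was Alb (34720 CPM in O5 and 65640 CPM in O2). In O5, Ttr (643 CPM) and Serpina1c (489 CPM) were below every Adult mouse as well. Apoa1 (6330 CPM, Adult range 4172 to 6372) and Cps1 (3675 CPM, Adult range 3563 to 4636) in O5 were inside the Adult range. The summed level of 6 Kupffer cell markers was 382 to 588 CPM in Adult, 247 (O5) to 2633 (O2) in Old and 661 to 1414 in PDX mice. For 14 T and natural killer cell markers it was 5.71 to 11.6 CPM in Adult, 2.89 (O5) to 209 (O2) in Old and 10.9 to 36.8 in PDX mice. Cd4 alone made up 116 of the 209 CPM in O2. Monocyte and neutrophil markers summed to 5.95 to 12.5, 13.9 to 177 and 27.0 to 67.3 CPM in the 3 groups, and B cell markers to 5.04 to 8.53, 8.51 to 97.4 and 14.6 to 53.3 CPM. Of the 6 plasmacytoid dendritic cell markers 2 passed the low-count filter, and the sum over all 6 was 1.32 to 2.36, 2.93 to 18.1 and 3.97 to 11.7 CPM. Most of it was Ly6d (16.2 of 17.0 CPM in O5). In Adult, Old and PDX mice, Siglech averaged 0.198, 0.202 and 0.341 CPM and Ccr9 0.273, 0.109 and 0.305 CPM. In the same order, Klk1 averaged 0.0482, 1.04 and 0.24 CPM and Cox6a2 0.0933, 0.550 and 0.230 CPM. Runx2 averaged 0.132, 1.07 and 0.735 CPM. Sinusoidal endothelial markers summed to 201 to 221, 82.3 (O5) to 191 and 155 to 217 CPM. No marker of any list was at 0 in all libraries, and the part of these cells in the results below was not tested. In whole liver, more cells of a type and more RNA per cell cannot be told apart.

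The interferons themselves were barely seen. The 6 genes of type I and type III interferons that were examined (Ifnb1, Ifna1, Ifna2, Ifna4, Ifnl2 and Ifnl3) had no counted pair in any of the 15 libraries, which allows a level of up to 0.137 CPM in the shallowest (3 pairs, counting error only). The other interferon alpha genes were not examined. Trex1, a nuclease gene known to be widely expressed, is also listed at 0 in every library, so a 0 in this table need not mean that a gene was silent. Ifng, the gene of interferon gamma, was counted in 5 mice, with 30 pairs in O2 (0.878 CPM) and at most 2 in any other mouse.

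Levels per kilobase of exon, the scale on which genes can be set beside each other, spanned 152 to 0.782 CPM per kb over all mice. Bst2 (tetherin, which holds budding virus at the cell surface) was highest at 152 CPM per kb, followed by Ifi27 at 81.0 and Iigp1, an immunity-related GTPase, at 52.4. The lowest were Oas3 at 0.876, Gbp5 at 0.861 and Mx1 at 0.782 CPM per kb. C57BL/6 mice are known to carry a defective Mx1 allele. Gamma-type genes stood at both ends of this order, with Igtp in place 4 and Gbp5 in place 42 of 43.

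In the heat map of every gene in every mouse the clearest difference was not between groups but inside the Old group. O5 had the lowest level of all 15 mice for 42 of the 43 genes, the exception being Rsad2 (viperin), which was lowest in O1. O2 had the highest level for 24 of 43 genes, and most of the rest were highest in P2 (16 genes). On the log2 CPM scale the SD over the 5 Old mice had a median of 1.502 for the 43 genes, against 0.526 for all tested genes, and 14 of the 43 exceeded the 95th percentile of all genes in that group (1.68). In the Adult mice the median SD was 0.274 against 0.205 for all genes, and in the PDX mice 0.401 against 0.227, with no gene of the list over the 95th percentile in either group. Among O1, O3 and O4 the median SD was 0.313, against 0.277 for all genes.

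**Figure D1:**
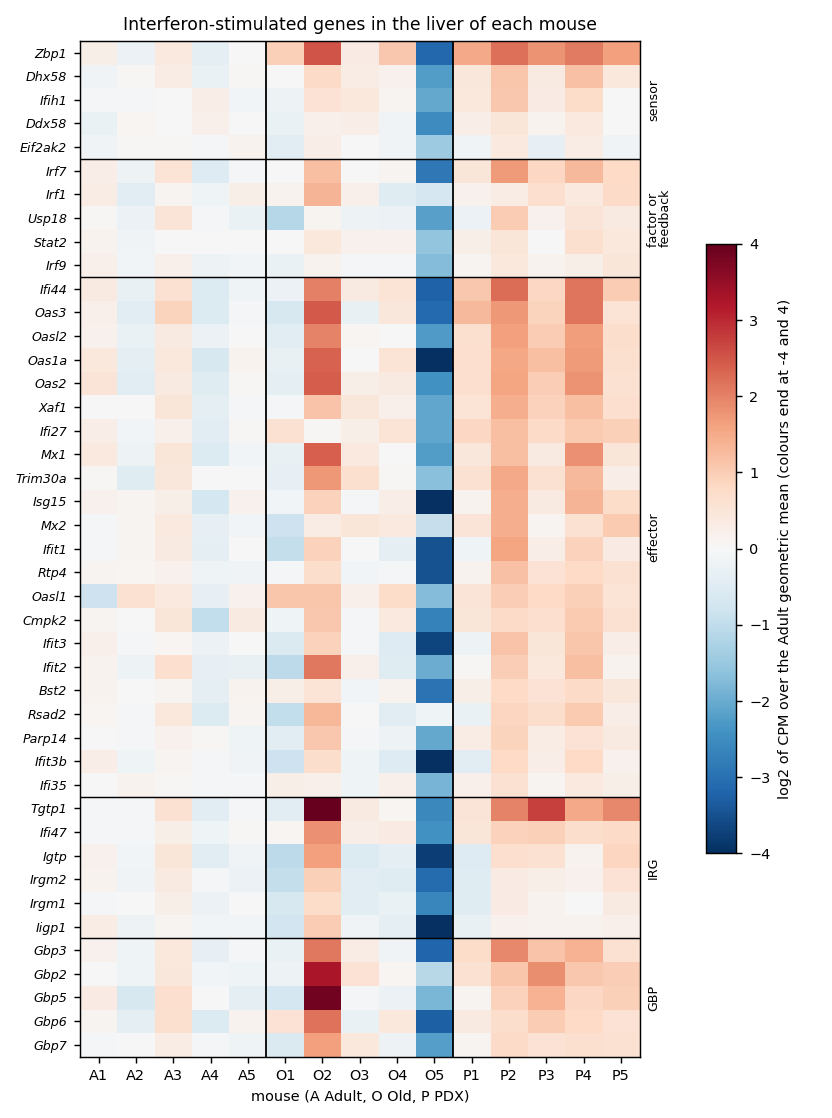
Heat map of 43 interferon-stimulated genes (rows, grouped by role; IRG, immunity-related GTPase; GBP, guanylate-binding protein) in 15 mice (columns), coloured by the log2 of CPM over the geometric mean of the 5 Adult mice, with colours ending at -4 and 4. O5 is blue in all rows (faintly in Rsad2), O2 is red in nearly all, and the 5 PDX mice are mostly red.

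The largest ratios between Old mice were 118 for Oas1a, 102 for Tgtp1 and 60.3 for Ifit3b. Oas1a, an oligoadenylate synthetase that activates RNA decay on sensing double-stranded RNA, stood at 5.59, 3.24, 5.56, 2.64 and 4.59 CPM in A1 to A5. In O1 to O5 it stood at 3.36, 21.2, 4.18, 6.06 and 0.180 CPM, and in P1 to P5 at 6.59, 12.0, 9.56, 13.5 and 6.43 CPM. The value in O5 rests on 5 read pairs. Every PDX mouse lay above every Adult mouse, while the Old mice reached from below to above both other groups. Ifit3b, of a family that binds foreign RNA ends, stood at 2.25, 6.53, 3.58, 2.79 and 0.108 CPM in O1 to O5, against 3.56 to 4.81 CPM in the Adult mice, and its O5 value rests on 3 pairs. Tgtp1, an interferon-inducible GTPase first described in T cells, stood at 1.57, 36.9, 2.71, 2.23 and 0.361 CPM in the Old mice and at 1.57 to 3.28 CPM in the Adult mice. O2 and O5 thus framed a group whose other 3 mice lay close to the Adult range.

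The classes were summarised in each mouse by the median, over the genes of a class, of the log2 difference from the Adult mean. For the type I genes this index was 0.13, -0.09, 0.35, -0.31 and 0.00 in A1 to A5, -0.26, 1.06, 0.07, 0.10 and -2.23 in O1 to O5, and 0.43, 1.12, 0.57, 1.03 and 0.48 in P1 to P5. All 5 PDX mice lay above all 5 Adult mice and above O1, O3 and O4. For the gamma-type genes it was 0.12, -0.17, 0.44, -0.17 and -0.15 in the Adult mice, -0.62, 1.88, -0.15, -0.22 and -2.83 in the Old mice and 0.11, 0.73, 0.80, 0.72 and 0.60 in the PDX mice. P1 lay inside the Adult range for this class. These indices are descriptions and were given no test.

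The extremes of the 2 indices fell in the same mice but differed in size. In O2 the gamma-type index was above the type I index by 0.82, and in O5 it was below it by 0.60, so both outlying mice lay farther out for the gamma-type genes. In O1, O3 and O4 the gamma-type index was the lower by 0.22 to 0.36, whereas in the Adult mice the 2 indices differed by 0.15 at most. Among the PDX mice the order of the classes varied, since P1, P2 and P4 had the lower gamma-type index (by 0.31 to 0.39) and P3 and P5 the higher (by 0.23 and 0.12). With Irf1, Iigp1, Ifi47 and Tgtp1 counted as gamma-type, the difference turned positive in O3 (0.06), shrank in O5 from -0.60 to -0.29 and stayed at 0.81 in O2, and it kept its sign in the other Old and PDX mice.

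**Figure D2:**
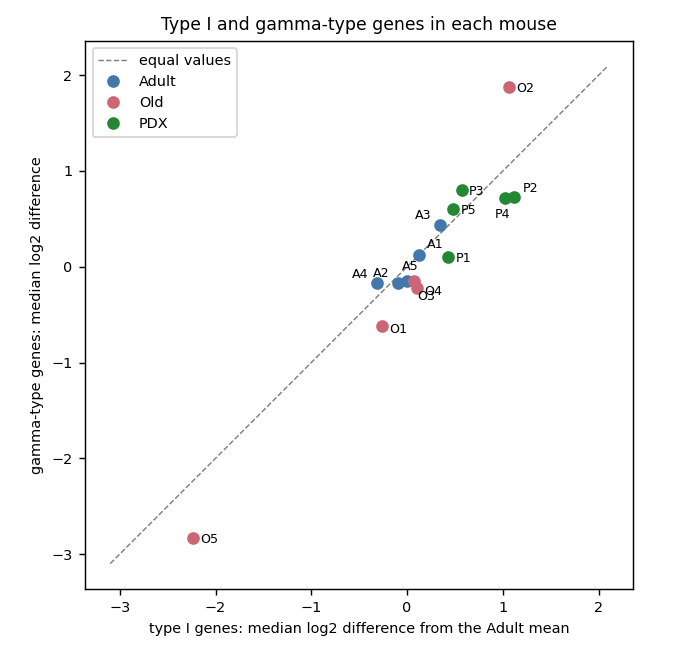
Each point is a mouse, with the index of the 35 type I genes (x axis) and of the 8 gamma-type genes (y axis), both in log2 units relative to the Adult mean; the dashed line marks equal values. O2 (1.06 and 1.88) lies above the line and O5 (-2.23 and -2.83) below it, and the 5 PDX mice lie between 0.43 and 1.12 on the x axis.

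Health scores given for the same mice may be set beside the index. In the paper, weight change is a weekly mean in percent, and treadmill distance, wheel running and frailty index are endpoint values. O2 was classed Frail with 3 positive criteria and a frailty index of 0.11, and it had the shortest treadmill distance of the 15 mice (33.9 m) and the highest weight change (3.07%). O5 was classed Frail with 4 criteria and a frailty index of 0.56, and it had the lowest wheel running (0.0399 km per day) and the lowest weight change (-3.55%). O3 and O4, whose type I index was near 0, were also classed Frail, and O1 was classed Robust. Among PDX mice P1 was Robust, P2 and P3 were Prefrail and P4 and P5 were Frail. Mice of the same class thus lay at both ends of the index, and no test was run.

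Ageing was addressed by the comparison of Old with Adult mice. In the model fitted to all 15 mice (edgeR, quasi-likelihood test, Benjamini-Hochberg adjustment over 15808 genes), none of the 43 genes passed an adjusted p of 0.05, while 6.78% of all tested genes did. At an unadjusted p under 0.05 there were 2 of the 43 (Gbp2 and Tgtp1, both with higher estimates). Of all 15808 genes, 27.7% had such a p in either direction and 2835 genes had it with a higher estimate. DESeq2 also called 0 of the 43, against 9.66% of all genes called higher. The median log2 fold change was 0.06 for the type I genes and 0.43 for the gamma-type genes, beside 0.07 over all tested genes. Of 43 estimates 25 were above 0 and 18 below, and no gene had its Old and Adult mice fully apart, although 8.13% of all genes did.

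These medians rested on O2. Without it they were -0.34 for the type I and -0.50 for the gamma-type genes, without O5 they were 0.31 and 0.71, and without both 0.01 and -0.21. Gbp2, a guanylate-binding protein that helps to break open pathogen vacuoles, stood at 11.9, 10.6, 16.6, 11.2 and 10.7 CPM in A1 to A5 and at 10.5, 116, 17.9, 12.7 and 5.59 CPM in O1 to O5. O2 and O3 lay above the Adult range of 10.6 to 16.6 CPM and O1 and O5 below it, O2 and O5 by the most. The log2 fold change was 1.42 ± 0.63 (SE; adjusted p = 0.160, edgeR), and it was -0.05 without O2. Tgtp1 had a log2 fold change of 2.00 ± 0.89 (SE; adjusted p = 0.160, edgeR) and -0.34 without O2. The 5 guanylate-binding genes of the list all had estimates above 0 (median 0.67), while Igtp, Irgm1 and Irgm2 had a median of -0.31. Without O2 and O5 these medians were -0.02 and -0.61. Outside the list, Gbp2b, Gbp4, Gbp8 and Gbp9 had estimates above 0 with all 15 mice, and Gbp10 (-0.175) and Gbp11 (-0.12) below 0.

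Among nucleic acid sensors, Zbp1 (a sensor of Z-form nucleic acid that can trigger cell death) differed in pattern from Ddx58 (RIG-I), Ifih1 (MDA5), Dhx58 (LGP2) and Eif2ak2 (PKR). Zbp1 was singled out after its values were seen. It stood at 11.7, 8.39, 12.9, 7.47 and 10.0 CPM in A1 to A5 and at 19.2, 56.4, 12.5, 20.8 and 1.12 CPM in O1 to O5. Of the Old mice 3 lay above all Adult mice, O3 lay inside their range and O5 far below it. Its Old versus Adult log2 fold change was 1.13 ± 0.58 (SE; adjusted p = 0.215, edgeR). It was the 1 gene of the list that passed the test without O5 and without both O2 and O5 (log2 fold change 0.81, adjusted p = 0.0357; adjusted p from 0.0223 to 0.646 over all alternatives). In those models 8.66% and 4.85% of all genes rose. The other 4 sensors had estimates between -0.25 and 0.06.

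PDX was compared with vehicle within the 22-month-old mice. None of the 43 genes passed an adjusted p of 0.05 or the looser 0.25 (edgeR; smallest adjusted p = 0.793), and neither did any of the 15808 genes tested (0% at both levels). At an unadjusted p under 0.05 there were 4 of the 43 (9.3%), namely Usp18, Mx2, Ifi27 and Irf9, all with higher estimates. Of all 15808 genes, 5.28% had such a p in either direction and 165 genes had it with a higher estimate. DESeq2 called 0 of the 43 and 0.00344% of all genes higher. The estimates leaned upward, with 39 of 43 above 0 and medians of 0.56 for the type I and 0.32 for the gamma-type genes, beside -0.07 over all tested genes. Of the 4 below 0, 3 were guanylate-binding genes (Gbp2, Gbp5 and Gbp6) and the other was Tgtp1, and O2 was the highest of the 15 mice in each of these 4.

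Ifi27, a small interferon-induced membrane protein, was the 1 gene of the list in which every PDX mouse exceeded every Old mouse, a pattern held by 0.145% of all tested genes. It stood at 135.3, 90.4, 104, 128 and 20.9 CPM in O1 to O5 and at 156, 202, 149, 181 and 171 CPM in P1 to P5. The log2 fold change was 0.85 ± 0.34 (SE; unadjusted p = 0.0239, adjusted p = 0.793, edgeR). Usp18, which strips Isg15 from proteins and damps signalling at the type I receptor, stood at 6.41, 15.5, 12.5, 12.2 and 3.14 CPM in the Old and at 12.0, 29.1, 16.2, 20.4 and 18.4 CPM in the PDX mice. Its log2 fold change was 0.95 ± 0.35 (SE; adjusted p = 0.793, edgeR), and P1 overlapped the Old mice. Mx2, a dynamin-like GTPase, had 0.81 ± 0.30, Irf9, the DNA-binding part of the type I complex, 0.55 ± 0.25, and Irf7, the factor that amplifies interferon alpha production, 0.94 ± 0.47 as log2 fold change ± SE, each with an adjusted p of 0.793 (edgeR).

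Leaving out O2 and O5, 37 of the 43 genes had an unadjusted p under 0.05 with higher estimates in PDX, against 6.11% of all genes, and still none passed after adjustment (edgeR; smallest adjusted p = 0.273; DESeq2 was not run on these mice). The medians were then 0.79 and 0.91 for the type I and gamma-type genes. In 20 of 43 genes every PDX mouse lay above O1, O3 and O4, a pattern held by 2.56% of all genes. The 2 mice were set aside here because they stood apart across all genes, and this comparison is of 5 mice with 3. Leaving out O2 alone gave medians of 1.03 and 1.18, and leaving out O5 alone 0.34 and 0.03.

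The third comparison set PDX-treated old mice against vehicle-treated Adult mice, which differ in both age and treatment. All 43 estimates were above 0, with medians of 0.70 for the type I and 0.60 for the gamma-type genes, beside -0.01 over all tested genes. In 13 of the 43 genes (30.2%) every PDX mouse exceeded every Adult mouse, against 10.5% of all genes. Even so, none of the 43 passed an adjusted p of 0.05 in the model of all 15 mice, while 2.66% of all genes did. At an unadjusted p under 0.05 there were 7 of the 43 (16.3%), all with higher estimates. Of all 15808 genes, 20.6% had such a p in either direction and 1777 genes had it with a higher estimate. DESeq2 called 1 of the 43, Zbp1, against 4.57% of all genes called higher.

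That count depended on whether the Old mice shared in the estimate of the spread. In a model of the 10 Adult and PDX mice alone, 31 of the 43 genes (72.1%) rose in PDX and none fell, against 16.1% of all genes that rose. Without O2 and O5 but with the other 3 Old mice, 30 of 43 rose, against 14.4% of all genes, and these 30 were among the 31, the additional gene being Irf1. The fold changes were nearly the same in each model and the standard errors were not. For Zbp1 the log2 fold change was 1.84 ± 0.59 in the model of 15 mice and 1.85 ± 0.17 (SE) in that of 10. Leaving out O2 alone gave 4 of the 43 genes, against 7.76% of all genes that rose, and leaving out O5 alone gave 8, against 5.35%. Of the 31 genes 26 were type I (of 35) and 5 gamma-type (of 8), the latter being the 5 guanylate-binding genes. The 26 include Irf1, Ifi47 and Tgtp1, which the alternative split counts as gamma-type. The 12 that passed in neither were Ddx58, Eif2ak2, Ifit1, Ifit2, Ifit3b, Igtp, Iigp1, Irf9, Irgm1, Irgm2, Rsad2 and Usp18. Kupffer cell, T and natural killer cell, monocyte and B cell marker sums were also higher in PDX than in Adult mice, as given above, and their part in these results was not tested.

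**Figure D3:**
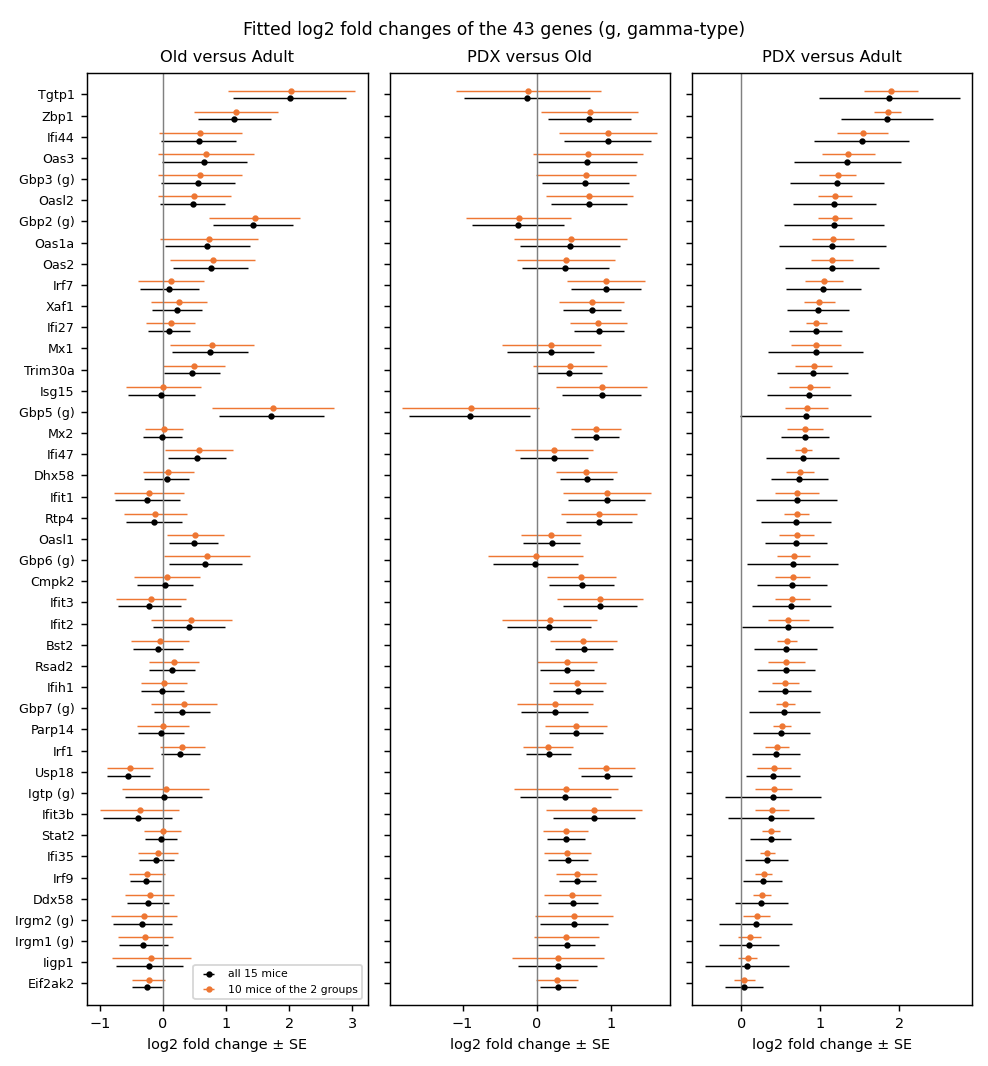
Fitted log2 fold change ± SE (x axis) of each of the 43 genes (y axis; g marks gamma-type genes) in the 3 comparisons, from the model of all 15 mice (black) and of the 10 mice of the groups compared (orange). In PDX versus Adult all 43 estimates are above 0 in both models and the orange bars are shorter, with Zbp1 at 1.84 ± 0.59 and 1.85 ± 0.17.

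Zbp1 in the PDX mice stood at 28.3, 45.6, 34.2, 42.2 and 30.7 CPM, and each was more than the highest Adult value of 12.9 CPM. The adjusted p was 0.101 in the model of 15 mice and 8.0e-05 in that of 10 (edgeR), and over all alternatives it ranged from 5.5e-05 to 0.208. Irf7 stood at 59.1, 43.1, 72.3, 35.0 and 46.5 CPM in A1 to A5, at 50.0, 114, 49.5, 53.6 and 6.85 CPM in O1 to O5 and at 68.7, 161, 88.5, 122 and 86.0 CPM in P1 to P5. P1 overlapped A3 and the other 4 PDX mice lay above all Adult mice. Its log2 fold change was 1.04 ± 0.47 in the model of 15 mice (adjusted p = 0.227) and 1.05 ± 0.24 in that of 10 (SE; adjusted p = 0.00716, edgeR, with a range of 0.00449 to 0.407 over alternatives). The estimates of the partner factors were smaller. Stat2 averaged 89.2 ± 5.98 CPM in Adult, 87.4 ± 33.8 in Old and 115 ± 20.0 in PDX mice, and Irf9 47.4 ± 6.37, 39.1 ± 14.7 and 57.3 ± 6.795 CPM (SD, n = 5 each). In the model of 10 mice Stat2 rose by a log2 fold change of 0.38 ± 0.11 (SE), and Irf9, at 0.29 ± 0.11 (SE; adjusted p = 0.0635, edgeR), did not pass. Irf1, which serves both interferon classes, averaged 59.9 ± 12.1, 72.5 ± 46.1 and 81.2 ± 14.1 CPM (SD, n = 5 each), and it rose in the model of 10 mice (0.45 ± 0.15 SE, adjusted p = 0.0457, edgeR; 0.0457 to 0.639 over alternatives).

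Antiviral effectors made up 22 of the 43 genes, with 22 of 22 estimates above 0 in PDX versus Adult and a median of 0.75. Isg15, a ubiquitin-like protein that is attached to other proteins, stood at 12.8, 12.1, 13.4, 6.92 and 12.8 CPM in A1 to A5, at 10.5, 21.4, 10.9, 13.7 and 0.613 in O1 to O5 and at 12.6, 30.7, 14.5, 28.7 and 18.7 in P1 to P5. P1 lay within the Adult range, and P2 and P4 were the highest of all mice. Ifit1, which binds viral RNA lacking the host cap methylation, stood at 10.2, 11.7, 13.9, 8.31 and 11.0 CPM in the Adult mice, 5.56, 20.8, 10.7, 8.29 and 0.974 in the Old mice and 9.75, 32.4, 13.1, 20.5 and 13.7 in the PDX mice. Here 3 of the 5 PDX mice lay within the Adult range, and the gene did not pass in either model. P2 and P4 were thus high, and P1 low, in Isg15 and Ifit1 alike. Rsad2, a radical enzyme that makes a chain-terminating nucleotide, averaged 9.71 ± 2.25 CPM in Adult, 10.7 ± 7.65 in Old and 14.3 ± 4.60 in PDX mice, and Mx1 averaged 1.93 ± 0.564, 3.23 ± 3.80 and 3.71 ± 1.83 CPM (SD, n = 5 each). Among those that rose in the model of 10 mice were Ifi44 (log2 fold change 1.54 ± 0.32), Oas3 (1.36 ± 0.34), Oasl2 (1.19 ± 0.22), Oas1a (1.16 ± 0.26), Xaf1 (0.99 ± 0.19) and Ifi27 (0.95 ± 0.13; all SE). Ifi44, Oasl2 and Xaf1 were named after their values were seen. Bst2, the most abundant per length, rose by 0.57 ± 0.13 (SE), from 120 ± 16.7 CPM in Adult to 178 ± 28.4 CPM in PDX mice (SD, n = 5 each).

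**Figure D4:**
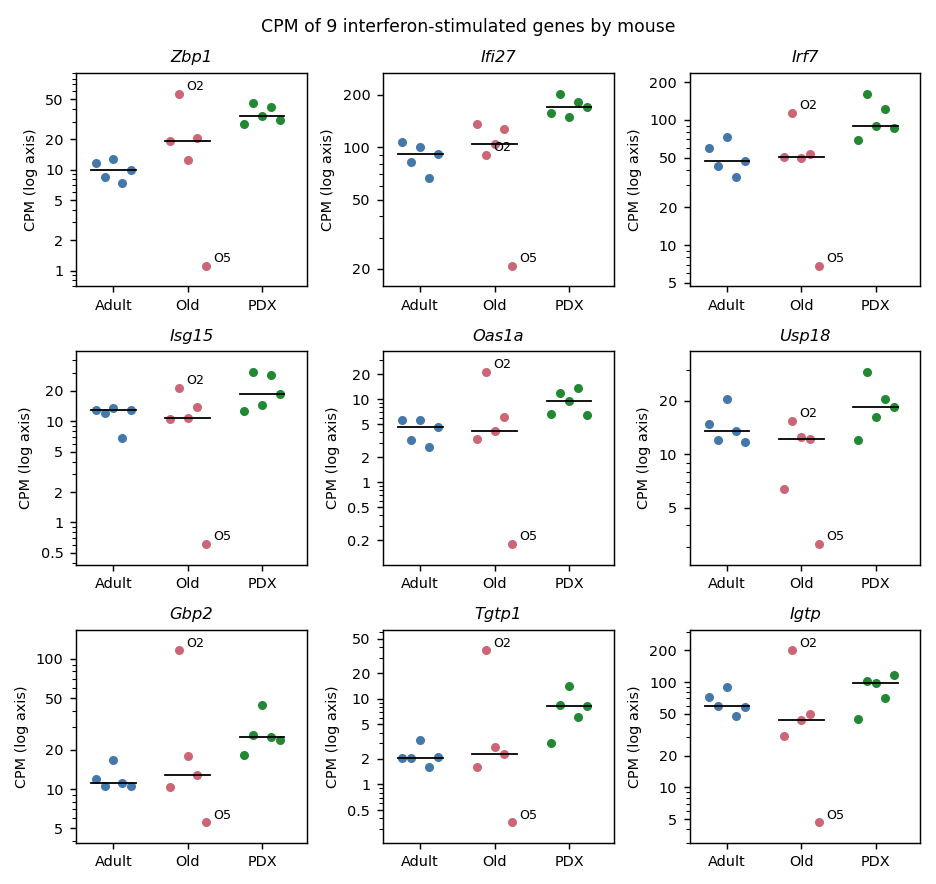
CPM (y axis, log scale) of 9 genes in each mouse of the Adult, Old and PDX groups (points, n = 5 each), with the group median as a line and O2 and O5 labelled. O5 is the lowest point in all 9 panels, and in Zbp1, Ifi27, Oas1a and Gbp2 every PDX mouse lies above every Adult mouse.

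The GTPases of the list are given by family. Its 5 guanylate-binding genes all rose in PDX versus Adult in the model of 10 mice. The log2 fold changes were 1.22 ± 0.23 for Gbp3, 1.19 ± 0.22 for Gbp2, 0.83 ± 0.27 for Gbp5, 0.67 ± 0.21 for Gbp6 and 0.56 ± 0.12 for Gbp7 (SE). Guanylate-binding genes outside the list were mixed in that model. Gbp8 (1.31 ± 0.28) and Gbp9 (0.87 ± 0.215) rose (SE). Gbp4 (0.33 ± 0.26), Gbp10 (0.03 ± 0.38), Gbp2b (-0.11 ± 0.53) and Gbp11 (-0.13 ± 0.32) did not pass (SE). Gbp2 stood at 18.3, 25.9, 43.9, 25.3 and 23.9 CPM in P1 to P5, all above the Adult maximum of 16.6 CPM, with P3 the highest. Of the 6 immunity-related GTPases, Tgtp1 (1.89 ± 0.35) and Ifi47 (0.79 ± 0.10) rose, and Igtp (0.41 ± 0.24), Irgm2 (0.19 ± 0.17), Irgm1 (0.11 ± 0.14) and Iigp1 (0.08 ± 0.12) did not pass (SE). Tgtp1 stood at 3.08, 8.51, 14.2, 6.15 and 8.15 CPM in P1 to P5, where P1 overlapped the Adult mice. Igtp, which coats or guards vacuole membranes with its Irgm partners, stood at 72.2, 59.6, 89.0, 48.1 and 58.5 CPM in A1 to A5, at 30.8, 201, 43.5, 49.9 and 4.69 in O1 to O5 and at 45.1, 102, 97.3, 70.7 and 117 in P1 to P5. P1 lay below all Adult mice and P2, P3 and P5 above them. Irgm1, a regulator of the other GTPases and of autophagy, averaged 78.9 ± 9.49 CPM in Adult, 63.7 ± 43.1 in Old and 84.4 ± 17.9 in PDX mice (SD, n = 5 each). The difference between the families was not tested.

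The highest of the 5 PDX mice was P2 for 20, P4 for 10, P5 for 3 and P3 for 2 of the 35 type I genes. Of the 8 gamma-type genes, 3 were highest in P3 (Gbp2, Gbp5 and Gbp6), 3 in P5 (Igtp, Irgm1 and Irgm2) and 2 in P2 (Gbp3 and Gbp7). The difference between the classes was not tested, and several of these genes are neighbours. The PDX mice were not ranked in this way over all tested genes, so these counts do not show a trait particular to the list. P1 was the lowest PDX mouse for both indices.

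Beyond the list, 43 genes of interferon receptors, kinases, factors and sensors were examined, of which 34 passed the low-count filter. In the model of 15 mice Socs3, a feedback inhibitor of cytokine signalling, rose in Old versus Adult (log2 fold change 1.40 ± 0.35 SE, adjusted p = 0.0322) and in PDX versus Adult (1.76 ± 0.36 SE, adjusted p = 0.0162, edgeR). Ikbke, a kinase that activates Irf3 and Irf7, rose in PDX versus Adult (1.16 ± 0.26 SE, adjusted p = 0.0289, edgeR), from 28.3 ± 2.23 to 63.0 ± 7.98 CPM (SD, n = 5 each). No gene of this list fell in any comparison. None passed in PDX versus Old with edgeR or DESeq2, with 0 at an unadjusted p under 0.05 as well (5.28% of all genes). DESeq2 called 7 genes higher in Old versus Adult and 4 in PDX versus Adult, Socs3 and Ikbke among both, against 9.66% and 4.57% of all genes called higher. Socs3 in O5 was 39.1 CPM, the highest of the Old mice, in contrast with the 43 genes. In the model of the 10 PDX and Adult mice 17 of 34 rose, against 16.1% of all genes, and none fell. Among them were Irf8, Ptpn6, Stat3, Tlr7, Tmem173 (STING), Samhd1 and Il10rb, and the median over the 34 was 0.40. In the model of 15 mice the medians were 0.46 in Old versus Adult, -0.06 in PDX versus Old and 0.39 in PDX versus Adult. Those of all tested genes were 0.07, -0.07 and -0.01. At an unadjusted p under 0.05 (edgeR) there were 15 of the 34 in Old versus Adult, 14 of them higher. In PDX versus Adult there were 7, all higher. Of all genes, 27.7% and 20.6% had such a p in either direction.

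Another 50 interferon-induced genes, of which 48 passed the filter, were examined. None passed with edgeR in any comparison in the model of 15 mice. At an unadjusted p under 0.05 there were 8 in Old versus Adult, 2 in PDX versus Old and 7 in PDX versus Adult. All of these had higher estimates. In the same order, 27.7%, 5.28% and 20.6% of all genes had such a p in either direction. Counted with higher estimates only, they were 2835, 165 and 1777 of 15808 genes. DESeq2 called 5, 0 and 1 of the 48, all higher, against 9.66%, 0.00344% and 4.57% of all genes called higher. The medians were 0.31 in Old versus Adult, 0.16 in PDX versus Old and 0.55 in PDX versus Adult. In the model of 10 mice 27 of 48 rose in PDX versus Adult, against 16.1% of all genes, and none fell. Examples were Slfn2 (log2 fold change 1.54 ± 0.23), Epsti1 (1.22 ± 0.19), Ciita, the factor that turns on MHC class II genes (1.29 ± 0.24), and Ifitm3, which blocks viral entry (0.61 ± 0.10; all SE). Ifitm3 averaged 293 ± 26.2 CPM in Adult, 288 ± 122 in Old and 445 ± 59.9 in PDX mice, and it was at 78.4 CPM in O5 (SD, n = 5 each). Both lists share the libraries of the 43 genes and are no independent check on them.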

How the data were processed

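Liver poly(A) RNA of 15 mice had been sequenced as stranded read pairs. Per the labels and the study's methods, the authors aligned the reads to mm10 with STAR 2.6.0c, counted uniquely aligned proper pairs per Ensembl gene with featureCounts (Subread 1.6.2), and deposited these raw counts together with a table of log2 values from the variance-stabilizing transformation of DESeq2 (1.23.10). The counts were used for all tests and the deposited log2 values for 1 alternative. Gene symbols, positions and exon lengths came from GENCODE mouse release 21 (GRCm38), which gave a symbol to 55104 of 55450 gene IDs, and promoters from RefSeq on GRCm38.p6. That release is not the Ensembl release of the counts, so lengths and positions may differ slightly.

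Libraries were scaled by TMM, genes were kept by filterByExpr (minimum count 10, total 15), and all 15 mice were fitted in 1 edgeR 4.0.16 quasi-likelihood model with group as the only term, in R 4.3.3. P-values were adjusted by Benjamini-Hochberg over 15808 genes, with 0.05 as the threshold (0.25 also for PDX versus Old). The SE of an edgeR log2 fold change was calculated back from the test, as its absolute value over the square root of the F statistic. A prior count of 2 was added for log2 CPM. The model was tested on simulated counts first. Alternatives were DESeq2 1.42.0 (Wald), relative log expression and upper-quartile scaling, 2 other filters, the 10 mice of the groups compared, a replicate block, leaving out each mouse and leaving out O2 and O5. Each library held 22424383 to 36070835 pairs.

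The 43 genes, the other gene lists, the marker lists and the rule for genes named in the text were chosen with earlier results of these data known. The rule named genes that passed in a comparison with Adult mice, the 5 smallest p-values in PDX versus Old, the 3 highest and 3 lowest levels per length, the 3 largest ratios between Old mice, and 13 genes fixed by name. Genes described beyond it were chosen after their values were seen. The gene listed in the plan as Mb21d1 was matched as Cgas. Each mouse is a separate animal, and numbers in the mouse names do not pair them: deviations of same-numbered mice correlated at -0.17 (Old and Adult), 0.09 (PDX and Old) and 0.03 (PDX and Adult) on average. Per the methods, Adult and Old mice were studied and killed in batches. The batch of each mouse, and any batch of extraction or sequencing, is not given in the sources used here, so no batch term could be entered.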

Additional observations from a re-analysis of the deposited data

Results flagged for a closer look

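In groups of 5 mice, a mouse was marked when its gap to the nearest other mouse exceeded 0.71 of the group's range (Dixon's 95% critical value) on the log2 CPM scale. Among 69 groups tested, over the genes chosen by the naming rule and the 2 class indices, 11 were marked, and chance marks about 1 in 20. That rate does not hold for the Old groups of Oas1a, Tgtp1 and Ifit3b, which were named for their ratio among Old mice, and 6 of the 11 marks are of the same mouse, O5. Values are log2 differences from the Adult mean.

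O5 was the lowest Old mouse for Ifi27 (-2.08), Irf9 (-1.74), Bst2 (-2.94), Ifit3b (-4.51), Stat2 (-1.57) and Isg15 (-4.06). In the Adult group A4 was low for Bst2 (-0.38) and Isg15 (-0.70), and A3 was high for Gbp2 (0.46). In the PDX group P1 was low for Iigp1 (-0.30) and for the gamma-type index (0.11). Neither O2 nor any other Old mouse was marked on the high side. The rule divides by the full range, which O5 widened at the low end. It therefore could not decide whether O2 stood apart on the high side.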

How the results depend on the processing

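In PDX versus Old none of the 43 genes passed under any alternative run. In Old versus Adult the count of 0 became 1 (Zbp1) without O2 and O5, and it ranged from 0 to 1 when each mouse was left out in turn. The count of 0 in PDX versus Adult became 1 with DESeq2, 31 with only the 10 mice compared and 30 without O2 and O5, and it ranged from 0 to 8 when each mouse was left out. Scaling, filters and the replicate block left all 3 counts at 0. The replicate block, fitted although the numbers do not pair the mice, gave medians of -0.13 (type I) and -0.04 (gamma-type) in Old versus Adult, 0.78 and 0.56 in PDX versus Old and 0.67 and 0.58 in PDX versus Adult. When each mouse was left out, the Old versus Adult log2 fold change ranged from -0.051 to 1.69 for Gbp2, -0.34 to 2.31 for Tgtp1 and -0.62 to 2.02 for Gbp5, with the negative end in each without O2, and that of Gbp5 was -0.36 without O2 and O5. Leaving out each mouse moved the median of the type I genes from -0.34 to 0.31 in Old versus Adult, 0.34 to 1.03 in PDX versus Old and 0.58 to 0.80 in PDX versus Adult, and that of the gamma-type genes from -0.50 to 0.71, 0.03 to 1.18 and 0.53 to 0.73. The indices moved by less than the spread between mice under every alternative run. Depth limits the O5 values of 8 genes with under 20 read pairs there, from 3 in Ifit3b and 5 in Oas1a to 17 in Isg15 (the others being Tgtp1, Mx1, Ifi44, Oas3 and Gbp6).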
